A study of Bos taurus and Bos indicus with 12 samples.

Results

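The fibrillar collagen genes COL1A1, COL1A2, COL3A1 and COL5A2 are described here with 2 genes whose products act on the collagens after secretion, PCOLCE and LOX. Members were all probe sets to which the platform annotation gives 1 of these 6 symbols. This gave 10 of the 24016 probe sets tested, or 6 of the 9155 genes with a symbol of their own. COL1A1, COL1A2, COL3A1 and PCOLCE had 2 probe sets each, and COL5A2 and LOX had 1. All 10 were kept, since no filter on low values was used. The genes were chosen from results of these arrays, with the infestation differences of their log2 values in both breeds in view, so their infestation differences are given as descriptions without p-values.

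The samples were punch biopsies of the whole thickness of cattle skin, 8 mm wide, from 12 female animals, with 1 Affymetrix bovine array per animal. There were 4 groups of 3 animals: infested Holstein-Friesian, naive Holstein-Friesian, infested Brahman and naive Brahman. Infested animals had gone through repeated heavy exposure to the cattle tick R. microplus and were sampled where larvae were attached. Naive animals had never met this tick. Infested animals of both breeds were 6 months old, naive Holstein-Friesian animals 12 months and naive Brahman animals 18 months, so within a breed infestation and age cannot be told apart.

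Fibrillar collagens are made as procollagens in which 3 chains wind into a triple helix with a propeptide at each end. After secretion the propeptides are cut off and the helices line up into fibrils, which give the dermis its tensile strength. PCOLCE, the procollagen C-endopeptidase enhancer, is a secreted glycoprotein that speeds removal of the C-terminal propeptide by BMP1-type proteinases. LOX, lysyl oxidase, oxidises lysine side chains so that neighbouring collagen and elastin molecules become cross-linked. Type I collagen holds COL1A1 and COL1A2 chains, type III holds COL3A1 chains, and COL5A2 is a chain of type V collagen, which is built into type I fibrils and helps to set their width. In the RefSeq gene table of assembly ARS-UCD2.0, COL3A1 and COL5A2 lie next to each other on chromosome 2, with 0 genes between them. The same table places COL1A1 on chromosome 19, COL1A2 on chromosome 4, LOX on chromosome 7 and PCOLCE on chromosome 25.

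The arrays differed in a measure of RNA integrity. It is the mean difference in log2 signal between the 5′ and 3′ probe sets of 5 control transcripts, and it falls where the 5′ end gives less signal. It lay between -4.91 and -2.07 in infested Brahman arrays, against -1.04 to -0.85 in naive Brahman arrays. In infested Holstein-Friesian arrays it lay between -2.73 and -0.75, against -1.39 to -0.82 in naive Holstein-Friesian arrays. The lowest values belonged to infested Brahman array 1 and infested Holstein-Friesian array 1. Fibroblasts are the main source of fibrillar collagen in skin, and the level of 7 fibroblast markers, as their mean log2 difference from the naive arrays, was 0.04 to 0.57 in infested Brahman and -0.31 to 0.22 in naive Brahman arrays. It was 0.28 to 0.56 in infested Holstein-Friesian and -0.28 to 0.23 in naive Holstein-Friesian arrays. Of 6 keratinocyte markers, which define the epidermis of the labelled tissue, KRT5, KRT14 and KRT10 were bright in all groups, while DSC3, a desmosomal cadherin, was dim, with a mean of 6.00 in infested Brahman and 7.07 in naive Brahman arrays. In whole skin, fewer cells of a type and less RNA per cell cannot be told apart.

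All values below are RMA values, which are background-corrected, normalised signals on a log2 scale, so that a difference of 1 is a doubling of signal. Differences carry the standard error (SE) of 1 limma model of all 12 arrays, and a probe set is called where its p-value, adjusted by Benjamini-Hochberg over all 24016 probe sets, was under 0.05. In Brahman animals 9 of the 10 member probe sets were called higher in infested skin, where 9.54% of all probe sets were called higher and 19.8% in either direction. In Holstein-Friesian animals 2 of 10, COL5A2 and 1 of the PCOLCE probe sets, were called higher, where 2.68% of all probe sets were called higher and 5.02% in either direction. The median difference of the 10 members was 1.37 in Brahman and 0.51 in Holstein-Friesian animals, beside medians of 0.04 and -0.03 over all probe sets. These contrasts were known when the members were chosen, and nothing is read from the counts.

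**Figure D1:**
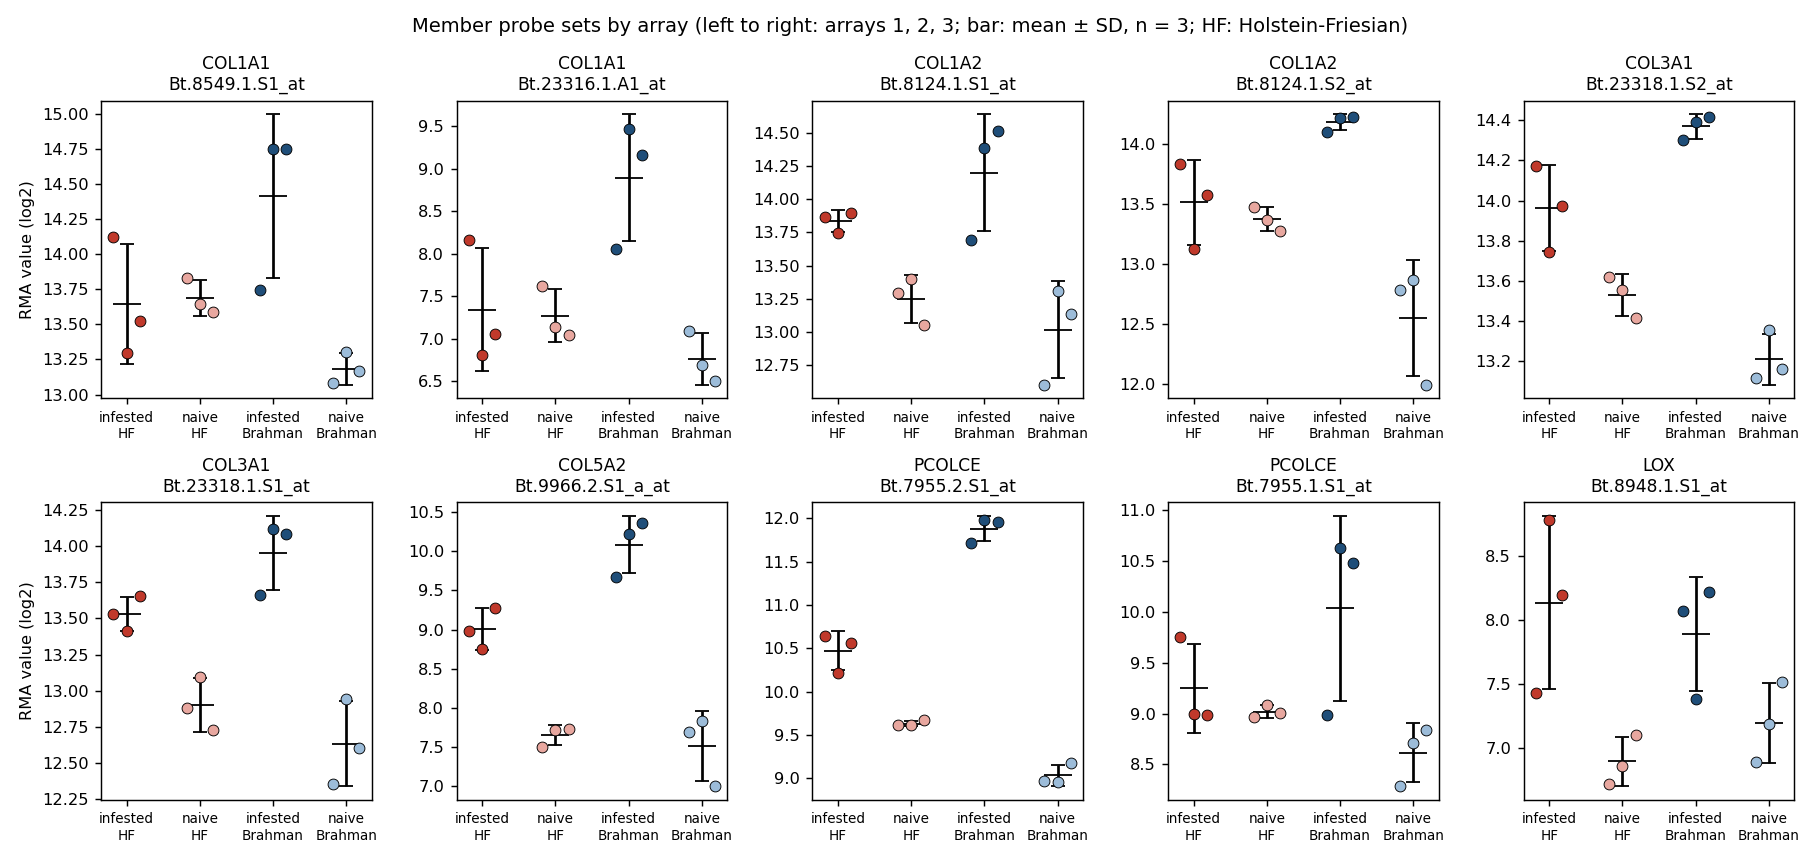
RMA value (log2, vertical axes with separate ranges that do not start at 0) of each of the 10 member probe sets in each of the 12 arrays, by group; horizontal lines are group means and bars ± SD (n = 3). Infested Brahman arrays lie above naive Brahman arrays in every panel except LOX, and infested Brahman array 1 lies well below the other infested Brahman arrays for the dimmer PCOLCE probe set (Bt.7955.1.S1_at).

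COL1A1, the more abundant chain of type I collagen, separated infested and naive skin in Brahman animals only. The brighter probe set, Bt.8549.1.S1_at, read 13.74, 14.75 and 14.75 in infested Brahman arrays, against 13.08, 13.30 and 13.17 in naive Brahman arrays. It read 14.12, 13.29 and 13.52 in infested Holstein-Friesian arrays, against 13.83, 13.64 and 13.59 in naive Holstein-Friesian arrays. The Brahman groups did not overlap, with a difference of 1.23 ± 0.28 (SE), while the Holstein-Friesian groups overlapped, with a difference of -0.04 ± 0.28. In infested Brahman arrays 2 and 3 this was the brightest of all probe sets on the array, and the value was identical in both. Whether the signal was saturated there was not tested.

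The dimmer COL1A1 probe set, Bt.23316.1.A1_at, gave the same picture at a much lower level. It read 8.05, 9.47 and 9.16 in infested Brahman arrays, against 7.10, 6.69 and 6.51 in naive Brahman arrays, a difference of 2.13 ± 0.40. It read 8.16, 6.81 and 7.06 in infested Holstein-Friesian arrays, against 7.63, 7.14 and 7.05 in naive Holstein-Friesian arrays, a difference of 0.07 ± 0.40. Both COL1A1 probe sets were lowest among infested Brahman arrays in array 1 and highest among infested Holstein-Friesian arrays in array 1, which are the 2 arrays with the lowest integrity index. Across the 12 arrays the deviations of the COL1A1 probe sets from their group means correlated by r = 0.90.

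COL1A2, the partner chain in type I collagen, also had its highest levels in infested Brahman skin. The brighter probe set, Bt.8124.1.S1_at, read 13.69, 14.38 and 14.52 in infested Brahman arrays, against 12.60, 13.31 and 13.14 in naive Brahman arrays, a difference of 1.18 ± 0.23. It read 13.87, 13.74 and 13.89 in infested Holstein-Friesian arrays, against 13.29, 13.40 and 13.05 in naive Holstein-Friesian arrays, a difference of 0.59 ± 0.23. The groups did not overlap in either breed.

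The dimmer COL1A2 probe set, Bt.8124.1.S2_at, separated only the Brahman groups. It read 14.10, 14.21 and 14.22 in infested Brahman arrays, against 12.78, 12.87 and 11.99 in naive Brahman arrays, a difference of 1.63 ± 0.23. It read 13.83, 13.13 and 13.57 in infested Holstein-Friesian arrays, against 13.47, 13.36 and 13.28 in naive Holstein-Friesian arrays, a difference of 0.14 ± 0.23. The COL1A2 probe sets thus placed the Holstein-Friesian groups differently, and their deviations from the group means correlated by only r = 0.08 over the 12 arrays.

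COL3A1, the chain of type III collagen, which is plentiful in young skin and in healing wounds, had infested arrays above naive arrays in both breeds on both probe sets. The brighter one, Bt.23318.1.S2_at, read 14.30, 14.39 and 14.41 in infested Brahman arrays, against 13.12, 13.35 and 13.16 in naive Brahman arrays, a difference of 1.16 ± 0.14. It read 14.17, 13.74 and 13.97 in infested Holstein-Friesian arrays, against 13.62, 13.56 and 13.42 in naive Holstein-Friesian arrays, a difference of 0.43 ± 0.14. Infested Brahman array 1 was again the lowest of its group, but by far less than on COL1A1. The dimmer one, Bt.23318.1.S1_at, read 13.66, 14.12 and 14.08 in infested Brahman arrays, against 12.36, 12.95 and 12.61 in naive Brahman arrays, a difference of 1.32 ± 0.18. It read 13.53, 13.41 and 13.65 in infested Holstein-Friesian arrays, against 12.88, 13.10 and 12.73 in naive Holstein-Friesian arrays, a difference of 0.63 ± 0.18. The Holstein-Friesian differences of COL3A1 were not called, although the groups did not overlap.

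The 5 bright probe sets of COL1A1, COL1A2 and COL3A1 were near the top of every array. Ranked from the brightest of the 24016 probe sets, they held places 1 to 54 in infested Brahman arrays and 103 to 318 in naive Brahman arrays. They held places 8 to 133 in infested Holstein-Friesian arrays and 34 to 163 in naive Holstein-Friesian arrays.

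COL5A2, probe set Bt.9966.2.S1_a_at, was at a lower signal and had the largest infestation difference of the 4 collagen genes in Holstein-Friesian skin, and in Brahman skin too. It read 9.67, 10.22 and 10.36 in infested Brahman arrays, against 7.70, 7.83 and 7.00 in naive Brahman arrays. It read 8.98, 8.75 and 9.28 in infested Holstein-Friesian arrays, against 7.51, 7.72 and 7.74 in naive Holstein-Friesian arrays. No infested array overlapped a naive array of either breed. The differences were 2.57 ± 0.25, or 5.95-fold, in Brahman and 1.35 ± 0.25, or 2.54-fold, in Holstein-Friesian animals. The Holstein-Friesian call was lost without naive Holstein-Friesian array 1 or 2 or infested Holstein-Friesian array 3, where the difference was 1.27, 1.38 and 1.21.

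PCOLCE had the largest Brahman difference of the 10 members on its brighter probe set, Bt.7955.2.S1_at, and a much smaller one on the dimmer. The brighter probe set read 11.71, 11.98 and 11.95 in infested Brahman arrays, against 8.96, 8.95 and 9.17 in naive Brahman arrays. It read 10.64, 10.22 and 10.56 in infested Holstein-Friesian arrays, against 9.61, 9.61 and 9.67 in naive Holstein-Friesian arrays. The 4 groups were fully separate, in the order infested Brahman, infested Holstein-Friesian, naive Holstein-Friesian, naive Brahman. The differences were 2.85 ± 0.14, or 7.21-fold, in Brahman and 0.84 ± 0.14, or 1.79-fold, in Holstein-Friesian animals. The Holstein-Friesian call was lost without naive Holstein-Friesian array 1 or infested Holstein-Friesian array 3, at differences of 0.83 and 0.80.

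The dimmer PCOLCE probe set, Bt.7955.1.S1_at, read 8.99, 10.63 and 10.48 in infested Brahman arrays, against 8.28, 8.71 and 8.84 in naive Brahman arrays. It read 9.75, 9.0 and 8.99 in infested Holstein-Friesian arrays, against 8.96, 9.09 and 9.01 in naive Holstein-Friesian arrays. Infested Brahman array 1 was 1.05 below its group mean here, while it was 0.17 below its group mean on the brighter probe set. The Holstein-Friesian groups overlapped on this probe set, and infested Holstein-Friesian array 1 stood above the rest. The differences were 1.42 ± 0.38, or 2.68-fold, in Brahman and 0.23 ± 0.38, or 1.17-fold, in Holstein-Friesian animals. In Brahman animals the call of the dimmer probe set was lost without naive Brahman array 1, 2 or 3 or infested Brahman array 2 or 3, at differences of 1.12 to 1.54, and the difference was 1.94 without infested Brahman array 1.

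The PCOLCE probe sets were therefore further apart in infested skin. The brighter probe set minus the dimmer probe set was 1.85 ± 0.76 in infested Brahman arrays and 0.42 ± 0.23 in naive Brahman arrays (SD, n = 3 each). The same difference was 1.22 ± 0.34 in infested Holstein-Friesian arrays and 0.61 ± 0.08 in naive Holstein-Friesian arrays (SD, n = 3 each). On the dimmer probe set infested Brahman array 1 lay 1.05 below and infested Holstein-Friesian array 1 lay 0.50 above its group mean, and these are the arrays with the lowest integrity index. The part of RNA integrity in the gap between the PCOLCE probe sets was not tested.

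LOX, probe set Bt.8948.1.S1_at, was set apart from the other members, with the larger difference in Holstein-Friesian skin and neither difference called. It read 8.07, 7.38 and 8.22 in infested Brahman arrays, against 6.89, 7.19 and 7.52 in naive Brahman arrays. It read 7.43, 8.78 and 8.19 in infested Holstein-Friesian arrays, against 6.72, 6.86 and 7.10 in naive Holstein-Friesian arrays. The Brahman groups overlapped and the Holstein-Friesian groups did not. The differences were 0.69 ± 0.33 in Brahman and 1.24 ± 0.33 in Holstein-Friesian animals. The Holstein-Friesian value was close to the threshold and was called under some other settings, among them median centring, at 1.29. It was also called without infested Holstein-Friesian array 1, at 1.59, and without infested Brahman array 1 or 2, at 1.24 in both.

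**Figure D2:**
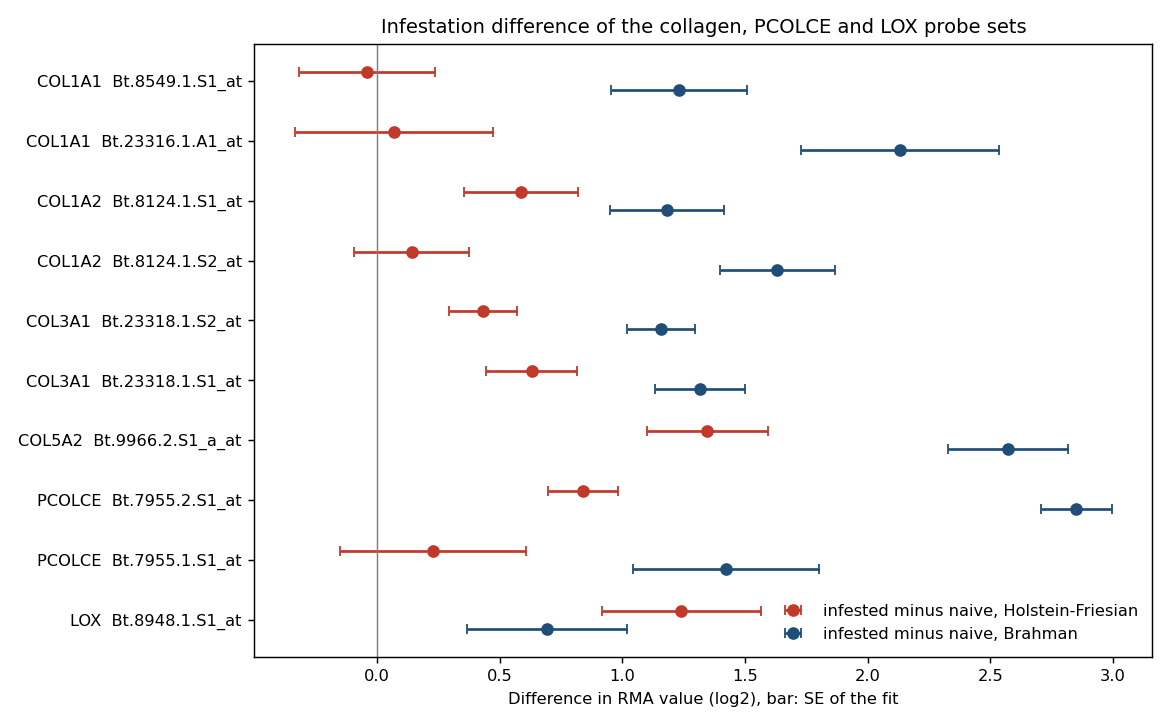
Infested minus naive difference in RMA value (log2, horizontal axis) of the 10 member probe sets in Holstein-Friesian (red, upper point of each pair) and Brahman animals (blue, lower point); bars are ± SE of the limma model. The Brahman point lies right of the Holstein-Friesian point for every probe set except LOX.

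Read over the arrays, 9 of 10 member probe sets had infested Brahman arrays wholly above naive Brahman arrays, where 19.3% of all probe sets did. In Holstein-Friesian animals 6 of 10 did so, where 14.4% of all probe sets did. For the brighter COL1A2 probe set, both COL3A1 probe sets, COL5A2 and the brighter PCOLCE probe set, all 6 infested arrays were above all 6 naive arrays, which held for 6.00% of all probe sets. No COL1A1 probe set was among the 6 of Holstein-Friesian animals.

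Whether infestation moved these genes differently in the breeds was tested with the interaction term. It shares its arrays with the infestation contrasts, so the members' sizes here are not independent of their choice. The brighter PCOLCE probe set differed more with infestation in Brahman than in Holstein-Friesian animals by 2.01 ± 0.20 (SE; 95% interval 1.56 to 2.46; limma adjusted p = 0.0190). It was the only called probe set of the 24016, a background of 0.00416%. With the replicate number as a block the adjusted p was 0.10, and with the integrity index as a covariate it was 0.0666. Leaving out single arrays gave adjusted p-values of 0.00479 to 0.119 at differences of 1.88 to 2.09. The call was lost without any 1 of naive Holstein-Friesian arrays 1 to 3, naive Brahman arrays 2 and 3, infested Holstein-Friesian array 3 and infested Brahman array 2.

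The interaction estimates of the collagens and of the dimmer PCOLCE probe set were also positive but not called. The dimmer COL1A1 probe set had 2.06 ± 0.57 and the brighter one 1.27 ± 0.39, the dimmer COL1A2 probe set had 1.49 ± 0.33, COL5A2 1.23 ± 0.35 and the dimmer PCOLCE probe set 1.19 ± 0.54. The brighter COL1A2 probe set and the COL3A1 probe sets lay between 0.59 and 0.73. LOX alone was negative, at -0.55 ± 0.46. The median of the members was 1.21, beside 0.05 over all probe sets. Without infested Holstein-Friesian array 1, 3 members were called, where 1.62% of all probe sets were called, and without both arrays of lowest index 7 were called, where 4.71% of all were.

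Among naive animals, 0 of 10 member probe sets were called between the breeds by limma, where 0.0250% of all probe sets were called. At an unadjusted p under 0.05 there were 3, where 4.78% of all probe sets passed. The naive arrays also enter the infestation differences that chose the members, so these values are not independent of that choice. The means were lower in naive Brahman than in naive Holstein-Friesian arrays for 9 of 10, LOX being the exception, with a median difference of -0.36 beside 0.00 over all probe sets. For 5 of the 10 the naive Brahman arrays lay wholly below the naive Holstein-Friesian arrays, where 7.21% of all probe sets did so. These were the brighter COL1A1 probe set, the dimmer COL1A2 probe set, the brighter COL3A1 probe set and both PCOLCE probe sets. The brighter PCOLCE probe set averaged 9.03 ± 0.12 in naive Brahman and 9.63 ± 0.03 in naive Holstein-Friesian arrays (SD, n = 3 each), a difference of -0.60 ± 0.14 (SE; limma adjusted p = 0.350). The dimmer COL1A2 probe set differed by -0.82 ± 0.23 (SE; limma adjusted p = 0.517). The naive animals of the breeds also differed in age, which cannot be told apart from breed.

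Infested animals were all 6 months old, and there the order of the breeds was the other way round. Means of 9 of 10 probe sets were higher in infested Brahman than in infested Holstein-Friesian arrays, LOX again being the exception, with a median of 0.72 beside 0.05 over all probe sets. The brighter PCOLCE probe set was the 1 member called, where 0.167% of all probe sets were called. It averaged 11.88 ± 0.15 in infested Brahman and 10.47 ± 0.23 in infested Holstein-Friesian arrays (SD, n = 3 each), a difference of 1.41 ± 0.14 or 2.66-fold (SE; limma adjusted p = 0.00411). With only the 6 infested arrays in the model its adjusted p was 0.253. For 5 of 10, both COL3A1 probe sets, the dimmer COL1A2 probe set, COL5A2 and the brighter PCOLCE probe set, the groups did not overlap, where 9.24% of all probe sets were wholly higher in infested Brahman arrays. COL5A2 differed by 1.08 ± 0.25 (SE; limma adjusted p = 0.143). Without infested Brahman array 1, 4 members were called, where 0.650% of all probe sets were called, and without infested Holstein-Friesian array 1, 2 were called, where 5.14% of all were. This contrast shares its arrays with the infestation contrasts.

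Whether PCOLCE follows the collagens was asked of the group means and of single animals. The collagen mean is the average of COL1A1, COL1A2, COL3A1 and COL5A2, each by its brighter probe set. It was 13.27 ± 0.36 in infested Brahman and 11.73 ± 0.19 in naive Brahman arrays, and 12.61 ± 0.21 in infested Holstein-Friesian and 12.03 ± 0.07 in naive Holstein-Friesian arrays (SD, n = 3 each). The brighter PCOLCE probe set had a larger infestation difference than the collagen mean, by 1.31 in Brahman and 0.26 in Holstein-Friesian animals. The dimmer probe set had a smaller one, by -0.12 in Brahman and -0.35 in Holstein-Friesian animals. In Brahman animals its difference, 1.42, lay above those of the brighter COL1A1, COL1A2 and COL3A1 probe sets and below that of COL5A2. It lay below those of the dimmer COL1A1 and COL1A2 probe sets, 2.13 and 1.63, and above that of the dimmer COL3A1 probe set, 1.32. The comparison with the collagen mean thus depends on the probe sets chosen. Whether the signal of the brightest ones was compressed was not tested.

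From animal to animal, with the group means removed, neither PCOLCE probe set showed a relation to the collagens that held after correction. Deviations of the brighter probe set and of the collagen mean correlated by Pearson r = 0.60 and Spearman rho = 0.45 over 12 arrays. Without infested Holstein-Friesian array 2 and infested Brahman array 1, r was -0.45, so the positive relation was not seen in the other arrays. Those arrays were left out as the farthest from the median in collagen mean deviation, which narrows the range and can itself lower r. For the dimmer probe set, r was 0.83 and rho 0.67, and r was 0.35 without the same arrays. Of 24006 probe sets outside the members, 10.4% had an r with the collagen mean at or above that of the brighter probe set. For the dimmer probe set the share was 1.23%. Strong negative correlations were not counted in these shares. Within the 6 infested arrays r was 0.88 for the brighter probe set and 0.92 for the dimmer probe set, and within the 6 naive arrays it was -0.58 and 0.28.

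Taken gene by gene, COL1A1 came nearest to PCOLCE. The brighter COL1A1 probe set correlated with the dimmer PCOLCE probe set by r = 0.93 (two-sided exact permutation within groups, p = 0.0401) and rho = 0.88 (exact p = 0.0355), and by r = 0.25 without infested Holstein-Friesian array 1 and infested Brahman array 1. With the brighter probe set it correlated by r = 0.72 (exact permutation p = 0.0370) and rho = 0.63 (exact p = 0.140), and by r = 0.33 without those arrays. Both relations were weaker without those arrays, which are also the arrays of lowest integrity index. They were left out as the farthest from the median in COL1A1 deviation. This narrows the range and can itself lower r, so the fall does not show what the relations rest on. COL5A2 correlated with the PCOLCE probe sets by 0.21 and 0.35, and LOX by -0.48 and -0.37. The PCOLCE probe sets correlated with each other by r = 0.70 (exact permutation p = 0.0270) and rho = 0.69 (exact p = 0.0965), and by r = 0.61 without infested Holstein-Friesian array 2 and infested Brahman array 1. Over the 19 relations computed the lowest Benjamini-Hochberg adjusted p was 0.198.

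**Figure D3:**
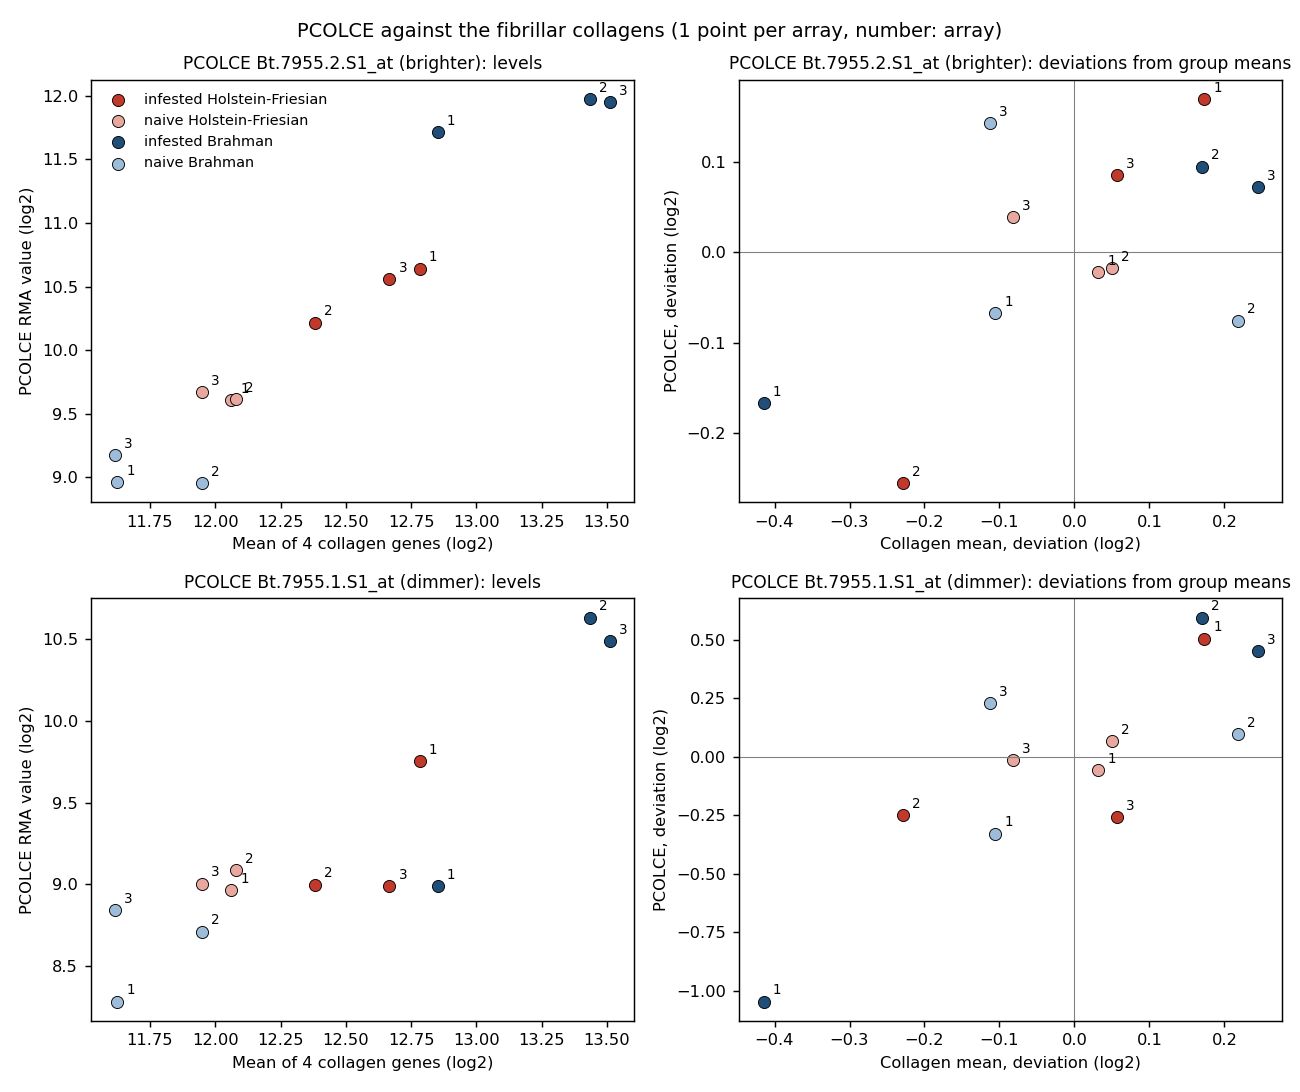
PCOLCE RMA value (log2, vertical axes) against the mean of the 4 collagen genes (log2, horizontal axes) in the 12 arrays, for the brighter probe set (top) and the dimmer probe set (bottom); left panels show levels and right panels deviations from group means, with the array number beside each point. In the right panels infested Brahman array 1 is the lowest in collagen mean, and without it and infested Holstein-Friesian array 2 the correlation is -0.45 for the top and 0.35 for the bottom probe set.

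The genes whose pattern was most like that of the brighter PCOLCE probe set were found by Pearson correlation over the 12 arrays, which includes the differences between groups. They were GPX7 at 0.982, FKBP7 at 0.981, RPS12 at 0.977, LRRC17 at 0.972 and CCDC80 at 0.971. GPX7 encodes a peroxidase and FKBP7 a prolyl isomerase of the endoplasmic reticulum, RPS12 a ribosomal protein and CCDC80 a matrix protein. RPS12 had 4 probe sets of which the lowest correlated by -0.33, and the other CCDC80 probe set correlated by 0.52. By deviations from the group means the nearest were other genes, FUOM at 0.936, PAPOLB at 0.926, TMEM39B at 0.922, SAP30L at 0.910 and TOMM22 at 0.909. The other probe set of TMEM39B correlated by 0.30 and that of SAP30L by -0.095. Among the members the brighter COL3A1 probe set was nearest in levels, at 0.966, and COL5A2 followed at 0.951.

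The rest of the collagen pathway was read from lists of related genes, 68 in all, each by its brightest probe set. Of these, 22 were called higher and 2 lower in infested Brahman skin, with a median of 0.41. In Brahman animals 9.54% of all probe sets were called higher and 19.8% in either direction. In infested Holstein-Friesian skin 15 of the genes were called higher and 1 lower, with a median of 0.30. There 2.68% of all probe sets were called higher and 5.02% in either direction. The same shares stand beside the counts of each list below. The lists were chosen with earlier results of these data known. None of the 68 was called in the interaction or between the breeds. Of all probe sets 0.00416% were called in the interaction, 0.0250% between naive and 0.167% between infested breeds, so nothing is read from this. Where a gene had several probe sets they did not always move alike.

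Other fibril-forming collagens had 2 of 5 genes higher in infested Brahman and 0 of 5 in infested Holstein-Friesian skin. Over all probe sets 9.54% and 2.68% were called higher. COL5A3, a further type V chain, differed by 1.18 in Brahman and -0.24 in Holstein-Friesian animals, and COL27A1, a cartilage collagen, differed by 1.00 and 0.33, with 0.10 in Brahman animals on its other probe set. For enzymes and chaperones that act on procollagen inside the cell, 4 of 19 were higher and 1 lower in infested Brahman skin. In either direction 19.8% of all probe sets were called there. The lower gene was TMEM38B, at -1.32 in Brahman and -0.69 in Holstein-Friesian animals. Its other probe set was at -0.98 and -0.34, and both were called in Brahman animals. MIA3 was among the higher genes at 0.51, but its 5 probe sets ranged from -2.37 to 0.71 in Brahman animals. FKBP10, a prolyl isomerase of the endoplasmic reticulum, differed by 1.41 in Brahman and -0.70 in Holstein-Friesian animals, and P4HA2, a prolyl 4-hydroxylase subunit, by 1.33 and 0.28. The FKBP10 means were 9.07 in infested and 7.66 in naive Brahman arrays, and 8.08 in infested and 8.78 in naive Holstein-Friesian arrays. In Holstein-Friesian skin 1 of the 19 was higher, P3H2, a prolyl 3-hydroxylase, at 1.08, and 1 was lower, FKBP14, a prolyl isomerase. There 5.02% of all probe sets were called in either direction. FKBP14 differed by 0.43 in Brahman animals, where it was called higher, and by -0.55 in Holstein-Friesian animals. Its means were 8.16 in infested Brahman and 8.00 in infested Holstein-Friesian arrays, but 7.73 in naive Brahman and 8.56 in naive Holstein-Friesian arrays. The FKBP14 means of the breeds thus lay further apart in the naive animals, whose ages also differed. FKBP14 was not called between the breeds in naive or in infested animals.

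Of the 3 genes of propeptide removal that were read, 0 were called in either breed. They were ADAMTS2, which cuts the N-terminal propeptide, PCOLCE2, a relative of PCOLCE, and MEP1B, a metalloproteinase. None of them is a BMP1-type proteinase, the enzymes whose action PCOLCE speeds. Their median difference was 0.01 in Brahman and 0.27 in Holstein-Friesian animals. MEP1B and ADAMTS2 were dim, with means of 3.93 and 4.98 in naive Brahman arrays, below the array medians of 6.58 to 6.73. PCOLCE2 was imprecise, at -0.17 ± 0.58 (SE) in Brahman and 0.49 ± 0.58 in Holstein-Friesian animals. These values cannot show whether propeptide removal changed, and nothing is read from the absence of calls. The lysyl oxidase family and its partners had 3 of 5 higher in infested Brahman skin, where 9.54% of all probe sets were. LOXL4, a relative of LOX, differed by 2.08 in Brahman and -0.34 in Holstein-Friesian animals. Its means were 10.16 in infested Brahman and 9.64 in infested Holstein-Friesian arrays, but 8.08 in naive Brahman and 9.98 in naive Holstein-Friesian arrays. FN1, fibronectin, differed by 1.75 and 1.23 and was called in both breeds, and EFEMP2, a fibulin that binds LOX, differed by 1.35 and 0.13.

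Fibril regulators, mostly small leucine-rich proteoglycans that coat collagen fibrils, had 6 of 12 higher in infested Brahman skin. In infested Holstein-Friesian skin 5 of 12 were higher, and none was lower in either breed. Over all probe sets 9.54% were called higher in Brahman and 2.68% in Holstein-Friesian animals. KERA, keratocan, differed by 4.13 in Brahman and 2.09 in Holstein-Friesian animals. OGN, osteoglycin, differed by 4.0 and 1.78, LUM, lumican, by 2.42 and 1.21, and THBS2, a matrix glycoprotein, by 1.83 and 1.80. Fibril-associated and other dermal collagens had 3 of 6 higher in infested Brahman skin, COL6A1 at 0.82, COL15A1 at 0.75 and COL4A1 at 0.68, and 0 of 6 in infested Holstein-Friesian skin. In Brahman animals the other COL4A1 probe set was at -0.19, the other COL15A1 probe set at 0.02, and a further COL6A1 probe set at 0.37. COL12A1 was not called on its brightest probe set, but 1 of its 3 probe sets was called in each breed. The highest difference among the 3 was 0.99 in Holstein-Friesian and 1.28 in Brahman animals.

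**Figure D4:**
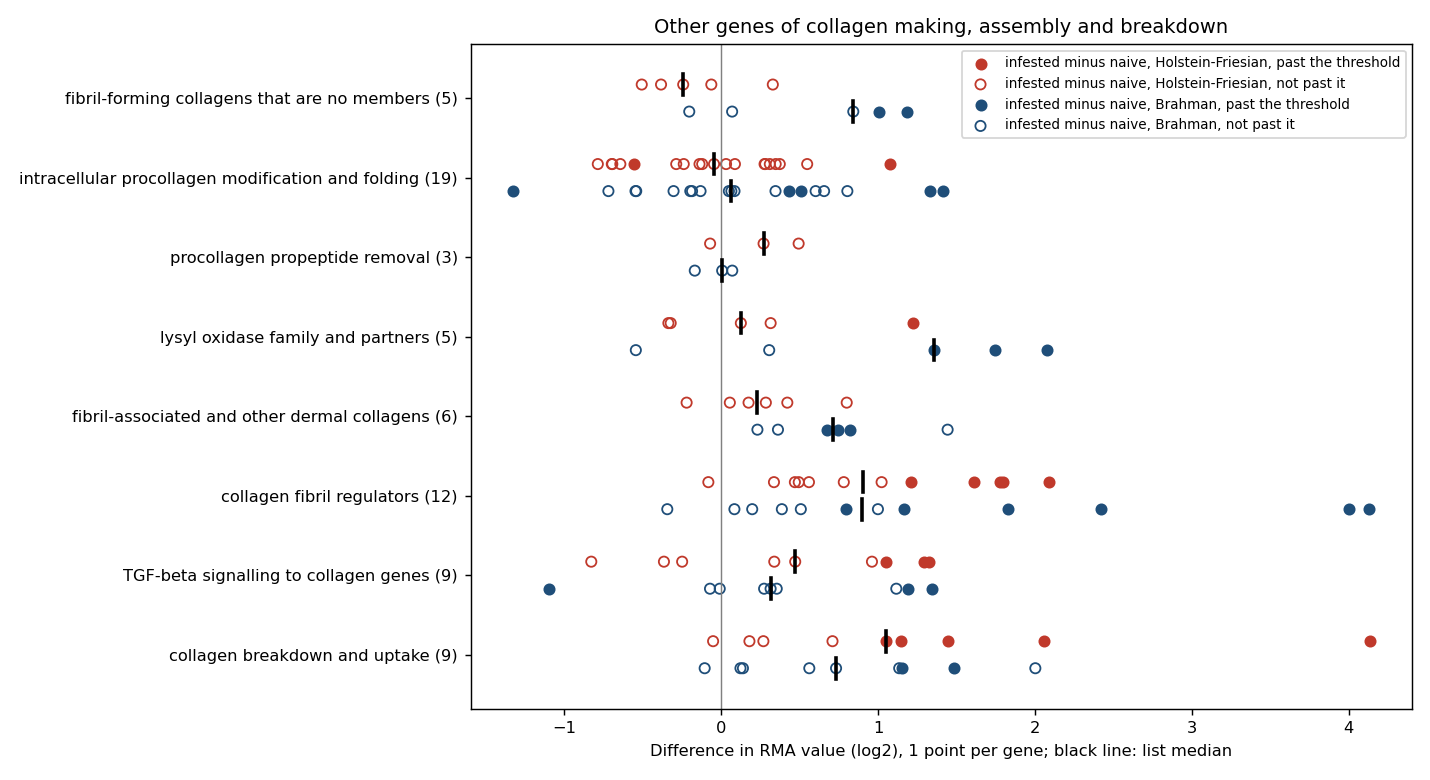
Infested minus naive difference in RMA value (log2, horizontal axis) of 68 genes of collagen making, assembly and breakdown, 1 point per gene and breed by list (number of genes in brackets); filled points passed the adjusted threshold of 0.05, open points did not, and black lines are list medians. The fibril regulators KERA and OGN reach 4.13 and 4.0 in Brahman animals.

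Markers of other cell types moved with infestation as well, beside the collagens. Over all probe sets 9.54% were called higher and 19.8% in either direction in Brahman animals. In Holstein-Friesian animals the shares were 2.68% and 5.02%. The level of 5 macrophage markers, taken in the same way, was 0.99 to 1.77 in infested Brahman and 1.31 to 1.73 in infested Holstein-Friesian arrays, against -0.41 to 0.47 in naive arrays, and 3 of 5 were called higher in each breed. That of 4 adipocyte markers was 0.85 to 1.60 in infested Brahman arrays and -0.24 to 0.47 in infested Holstein-Friesian arrays, against -0.71 to 0.61 in naive arrays, and 2 of 4 were called higher in infested Brahman skin. That of 5 gland markers was -1.84 to -0.95 in infested Brahman and -1.57 to -0.90 in infested Holstein-Friesian arrays, against -0.68 to 0.48 in naive arrays, and 4 of 5 were called lower in each breed. The remaining gland marker, the water channel AQP5, differed by 2.79 in Brahman animals, where it was called higher, and by 1.93 in Holstein-Friesian animals, where it was not called. Of the 7 fibroblast markers, 1 was called higher in infested Brahman skin, PDGFRA, and 2 in infested Holstein-Friesian skin, PDGFRA and DPT. Only 1 of the 3 PDGFRA probe sets was called in each breed. Their lowest value was 0.27 in Brahman and 0.07 in Holstein-Friesian animals. PDGFRB differed by -0.23 in Brahman and -0.54 in Holstein-Friesian animals, THY1 by -0.68 and 0.03, and S100A4 by 0.20 and -0.17. The other markers, DPT, FBLN1 and VIM, were positive in both breeds, except for the other FBLN1 probe set in Brahman animals, at -1.21. The level of 5 smooth muscle and pericyte markers was -1.93 to -0.40 in infested Brahman and -0.77 to -0.03 in infested Holstein-Friesian arrays, against -0.23 to 0.25 in naive arrays. Of these, ACTA2, MYH11 and CNN1 were called lower in infested Brahman skin, and the median of the 5 was -1.07. The level of 6 keratinocyte markers was -0.52 to -0.16 in infested Brahman and -0.35 to 0.04 in infested Holstein-Friesian arrays. It was -0.13 to 0.00 in naive Brahman and -0.07 to 0.22 in naive Holstein-Friesian arrays. In this mean the Brahman groups did not overlap, but 0 of 6 markers were called and 1 was wholly lower in infested Brahman arrays. In Brahman animals KRT5, KRT14 and KRT10 differed by -0.06, 0.01 and -0.06, DSG1 by -0.17, KRT15 by -0.42 and DSC3 by -1.07. Of 4 melanocyte markers, TYRP1 was called lower in infested Brahman skin. Their level was -1.98 to -0.59 in infested Brahman and 0.43 to 1.42 in infested Holstein-Friesian arrays, against -1.01 to 0.59 in naive arrays. For 4 skeletal muscle markers it was -1.06 to -0.76 in infested Brahman and -1.26 to -0.72 in infested Holstein-Friesian arrays, against -1.05 to 1.44 in naive arrays, with CKM called higher and MYBPC1 lower in infested Brahman skin. For 5 endothelial markers it was -0.54 to 0.01 in infested Brahman and 0.01 to 0.10 in infested Holstein-Friesian arrays, against -0.13 to 0.23 in naive arrays. The part of these cell types in the collagen, PCOLCE and LOX values was not tested.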

How the data were processed

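Each of 12 animals gave 1 array. The authors summarised its probe sets by RMA, per the submitters' processing notes, and deposited the outcome as log2 values. Which program and chip definition they ran is not given in the sources used, and the scale was inferred from the size of the values. Array medians lay between 6.58 and 6.73. Of 24128 probe sets 112 are controls and stayed out of the tests. By the platform annotation 13292 of the others have 1 symbol, 86 have several and 10638 have none, and only those with 1 symbol are named. Without detection calls it is unknown how far a signal stood above background, and 3 arrays per group limit the precision.

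A single limma fit (limma 3.58.1, R 4.3.3, functions lmFit and eBayes) took in the 12 arrays with a mean for each group, which left 8 degrees of freedom for the residuals beside a prior worth 3.03. Its 5 two-sided comparisons were each adjusted by Benjamini-Hochberg over 24016 probe sets, and 0.05 was the threshold. Nothing in the labels ties animals to a litter, batch or day. Deviations of same-numbered infested and naive Holstein-Friesian arrays correlated by 0.113 to 0.249, which meets the rule set for pairing, while those of infested and naive Brahman arrays correlated by -0.189 to -0.053. The replicate number was therefore an alternative block. Correlations used deviations from group means, tested by exact permutation of arrays within groups (1296 arrangements). Tested on simulated data for infested against naive Brahman animals over 24016 probe sets, the fit recovered 56% of simulated differences of size 1 and 93% of those of size 2 on the log2 scale. The simulation changed a far smaller part of the probe sets than the 19.8% called in the real contrast. Its recovery therefore does not carry over to that contrast.

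The members, the gene lists and the rules were chosen with earlier results of these data known. Named genes are all members, up to 4 genes of each list, called ones first by size of change, and the 5 genes nearest to PCOLCE by each of 2 correlations. FKBP14, MIA3, COL12A1 and the cell type markers were named in addition. Other settings tried were dropping the dimmest 40 percent of probe sets, centring arrays on their medians, normalising by cyclic loess, a robust trended prior, fitting the compared groups alone, weighting the arrays, the block, the integrity index as a covariate, and fits without the 2 arrays of lowest index or without any 1 array.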

Additional observations from a re-analysis of the deposited data

Results flagged for a closer look

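The brighter PCOLCE probe set was the 1 result that stood out, because its infestation difference differed between the breeds by the interaction term. Infested minus naive was 2.85 in Brahman and 0.84 in Holstein-Friesian animals, and the difference between these was 2.01 ± 0.20 (SE; limma adjusted p = 0.0190), with all 3 infested Brahman arrays above all 3 infested Holstein-Friesian arrays and all 3 naive Brahman arrays below all 3 naive Holstein-Friesian arrays. The adjusted p was 0.10 with the replicate number as a block and 0.0666 with the integrity index as a covariate, and the call was kept in 5 of 12 fits that left out 1 array. The term is built from the infestation differences that chose the members and is not independent of that choice. The other PCOLCE probe set had 1.19 ± 0.54 in the same term and was not called (limma adjusted p = 0.662). The naive animals of the breeds differed in age, so the part of age in this difference cannot be told apart from that of breed.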

How the results depend on the processing

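Of 1040 alternative values for the 50 member differences, 961 kept direction and side of the threshold, 40 passed it newly, 21 lost it and 18 changed sign. Of 13 called differences 8 stayed called throughout, all in infested against naive Brahman animals, and none changed sign. The members were chosen with these infestation differences in view, so their persistence is no independent support for them. In Brahman animals 9 members were called, where 19.8% of all probe sets were called, with 8 to 9 members under every alternative run. In Holstein-Friesian animals 2 were called (5.02% of all probe sets), against 5 with array weights (19.1%) and 4 with the index as covariate (8.42%). Without the 2 arrays of lowest index 4 were called (16.97%). Leaving out single arrays gave 0 to 4. There were 0 without naive Holstein-Friesian array 1 (0.654% of all) or infested Holstein-Friesian array 3 (1.15%). There was 1 without naive Holstein-Friesian array 2 (1.34%), and there were 4 without infested Brahman array 1 (10.7%). For the interaction 1 was called (0.00416% of all), against 6 with array weights (2.70%) and 7 without the arrays of lowest index (4.71%). There were 0 with the replicate block (0% of all) and 0 with the index as covariate (0.00416%). Leaving out single arrays gave 0 to 3, with 0% of all called where no member was and 1.62% where 3 were. Between naive breeds 0 were called, against 1 with array weights (1.67% of all), the brighter PCOLCE probe set. Between infested breeds 1 was called (0.167% of all), against 0 with only the arrays compared (0.00416%) and 5 with array weights (4.51%). Without the arrays of lowest index 6 were called (9.16% of all). Leaving out single arrays gave 1 to 4, with 4 (0.650% of all) without infested Brahman array 1. The replicate block left the other counts as they were, at 2 in Holstein-Friesian and 9 in Brahman animals, 0 between naive and 1 between infested breeds.

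The correlation of PCOLCE with the collagen mean, 0.60, was 0.41 to 0.78 leaving out single arrays, 0.73 with the replicate block and -0.45 without the 2 farthest arrays. That of the PCOLCE probe sets, 0.70, was 0.84 with the block, 0.63 to 0.84 leaving out single arrays. Its exact p was over 0.05 without naive Brahman array 3, infested Holstein-Friesian array 1 or any 1 infested Brahman array, and with median centring (0.63), the index regressed out (0.77), Spearman rho (0.69), without the arrays of lowest index (0.36) or without the farthest arrays (0.61).

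The member differences that changed sign were all uncalled. In Holstein-Friesian animals the brighter COL1A1 probe set was 0.0053 with median centring, 0.012 with the index as covariate and -0.28 to 0.13 leaving out single arrays. The dimmer COL1A1 probe set was -0.25 with array weights, -0.34 without the arrays of lowest index and -0.34 to 0.34 leaving out single arrays. The dimmer COL1A2 probe set was -0.020 and the dimmer PCOLCE probe set -0.024 without the arrays of lowest index, and leaving out single arrays they were -0.020 to 0.33 and -0.024 to 0.36. COL5A2 between naive breeds was 0.013 with array weights and -0.31 to 0.11 leaving out single arrays, and LOX between infested breeds was 0.025 with the index as covariate and -0.60 to 0.077 leaving out single arrays. The cause was not tested.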

Other observations

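Several genes of collagen breakdown and uptake were called higher in infested skin. None was called in the interaction or between the breeds. This was so for nearly all probe sets, of which 0.00416% were called in the interaction and 0.167% between infested breeds. In infested Holstein-Friesian skin 5 of 9 were called higher, with a median of 1.05, where 2.68% of all probe sets were. In infested Brahman skin 2 of 9 were called higher, with a median of 0.73, where 9.54% of all probe sets were. None of the 9 was called lower. MMP1, interstitial collagenase, differed by 4.13 in Holstein-Friesian and 2.0 in Brahman animals and was called in Holstein-Friesian animals alone. CTSK, cathepsin K, a lysosomal protease that cuts fibrillar collagen, differed by 2.06 in Holstein-Friesian and 1.49 in Brahman animals, and PEPD, which splits proline-containing dipeptides, by 1.05 and 1.15. FAP, fibroblast activation protein, differed by 1.45 in Holstein-Friesian animals, where it was called, and 0.73 in Brahman animals.

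TGF-beta signalling is a pathway known to raise collagen gene transcription in fibroblasts. In its list 3 of 9 genes were called higher in infested Holstein-Friesian skin, where 2.68% of all probe sets were. In infested Brahman skin 2 were called higher and 1 lower, where 19.8% of all probe sets were called in either direction. TGFBR2, a receptor, differed by 1.05 in Holstein-Friesian and 1.35 in Brahman animals (-0.11 and 0.24 on its other probe set), and the ligand TGFB3 by 1.30 and 1.19. CCN2, a matricellular protein, differed by 1.32 in Holstein-Friesian animals, where it was called, and 0.27 in Brahman animals. The ligand TGFB1 differed by -0.83 in Holstein-Friesian animals, where it was not called, and -1.10 in Brahman animals, where it was.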
